A study of Mus musculus with 5 samples.

Results

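The epidermal growth factor (EGF) family was followed across the cells of the obstructed mouse kidney. The members were 8 genes taken by symbol: the ligands Egf, Hbegf, Areg, Ereg and Tgfa and the receptors Egfr, Erbb2 and Erbb3. Each matched a single identifier among the 28692 in the deposited matrices. The kidneys came from C57/BL6 mice aged 8 weeks, and each library pooled 3 mice. There were 4 droplet libraries: a sham operation (day 0), day 2 and day 7 of unilateral ureteric obstruction (UUO, in which 1 ureter is blocked), and a reversed library taken 7 days after the block was undone, on experimental day 14. A Smart-seq2 sample of 768 wells (8 plates of 96) mixed all time points. Digestion was done on ice, followed by a sort for viability with DAPI, so the libraries hold the cells that survived both.

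EGF family ligands are made as membrane-bound precursors and are released by shedding enzymes. Egf, Tgfa and Areg bind the receptor Egfr, and Hbegf and Ereg bind both Egfr and the related receptor Erbb4. Erbb2 has no known ligand and works as a partner of the other receptors, and Erbb3 binds neuregulins but has little kinase activity of its own. In kidney, Egf is known as a product of the thick ascending limb and the distal convoluted tubule, segments of the nephron that reabsorb salt.

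Each time point had 1 library, so no difference between time points has a replicate check and none was tested. Levels are unique molecular identifiers (UMIs) of a gene in CPM, counts scaled to 1000000 UMIs, summed over the cells of a gate, a cell class set by marker genes. Square brackets hold exact intervals at 95% confidence, Poisson for levels, Clopper-Pearson for shares of cells and conditional binomial for ratios; they cover counting error only. Where a gate had no UMI of a gene, the limit given is 3 counts over its total. Ratios are log2 of CPM plus a pseudocount of 1.

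The deposited libraries held 2739 to 5938 cells and 18649637 to 30462683 UMIs. After filtering, 3746 sham, 2159 day 2, 4287 day 7 and 3140 reversed cells were kept. The median UMIs of a kept cell were 2656.5, 6566, 5646 and 4873.5, and the median shares of mitochondrial UMIs were 33.6, 9.89, 2.96 and 8.29%. The sham library therefore stood apart, with the shallowest cells and the highest mitochondrial share. Any pair of libraries shared 16 to 39 cell barcodes, of which 1 to 5 fell in the same gate. Genes of the thick ascending limb that were not used to set its gate summed to 5921, 3178, 2254 and 3406 CPM in that gate.

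The stretches of promoter just before the start sites of Egf and Areg are shown because these ligands showed large differences between libraries and have an entry. Both are from RefSeq, build GRCm38.p6, 120 bases each, 5′ to 3′ on the strand of the gene, with matches to the searched motifs in capitals. Egf (ENSMUSG00000028017) spans chromosome 3 from 129677565 to 129755316 on the minus strand, and its stretch is chr3:129755323-129755442. Areg (ENSMUSG00000029378) spans chromosome 5 from 91139599 to 91148432 on the plus strand, and its stretch is chr5:91139479-91139598.
Egf: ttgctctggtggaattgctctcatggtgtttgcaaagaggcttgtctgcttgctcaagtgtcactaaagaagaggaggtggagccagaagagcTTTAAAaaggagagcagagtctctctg
Areg: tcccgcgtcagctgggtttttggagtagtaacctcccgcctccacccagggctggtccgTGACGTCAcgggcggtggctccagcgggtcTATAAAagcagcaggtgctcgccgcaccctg
The motif TATAAA and its relative TTTAAA, both forms of a TATA box, and the element TGACGTCA were searched on both strands, and no match overlapped another here. Where RefSeq lists several starts, that nearest the annotated start was used. The Egf stretch held TTTAAA from 27 to 22 bases before the start and was 47.5% G or C. The Areg stretch held TATAAA from 31 to 26 bases and TGACGTCA, the consensus cyclic AMP response element, from 61 to 54 bases before the start, and was 65.0% G or C. Over the 32851 RefSeq promoters, the 250 bases before the start held TATAAA in 12.4%, TTTAAA in 12.1% and TGACGTCA in 1.55%. RefSeq promoter entries were matched for 5 of the 8 members. Tgfa, Egfr and Erbb2 had none of these letters in that window.

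Egf, the founding ligand of the family, was the member with the largest difference between libraries. In the thick ascending limb it stood at 11872 CPM [11610 to 12138] in sham, 725 CPM [686 to 765] at day 2, 615 CPM [570 to 662] at day 7 and 4966 CPM [4839 to 5095] after reversal. These levels rest on 7815, 1315, 700 and 5833 Egf UMIs in 171, 222, 121 and 181 cells. The level was thus 16.4-fold lower at day 2 than in sham (log2 ratio -4.03 [-4.12 to -3.95]). It differed little between the obstructed libraries (day 7 against day 2, -0.24 [-0.37 to -0.10]). After reversal it was 8.07-fold higher than at day 7 (3.01 [2.90 to 3.13]) and still 2.39-fold lower than in sham (-1.26 [-1.31 to -1.21]). With cells of at most 20% mitochondrial UMIs the log2 ratio of reversed to day 7 was 2.06, and with classes taken from clusters those of day 2 and reversed to sham were -4.67 and -1.88. The cluster class also held cells of other gates. Of its clusters, 1 of 638 cells had 39.8% of them in the gate, and 1 of 429 cells had 98.6%. The ratio of reversed to sham was under 2-fold with up to 80% mitochondrial UMIs (-0.95), with each cell weighing the same (-0.94) and after thinning (-0.89). The gate held 88.2% of all Egf UMIs of the kept sham cells, 89.2% at day 2, 83.6% at day 7 and 81.5% after reversal.

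**Figure D1:**
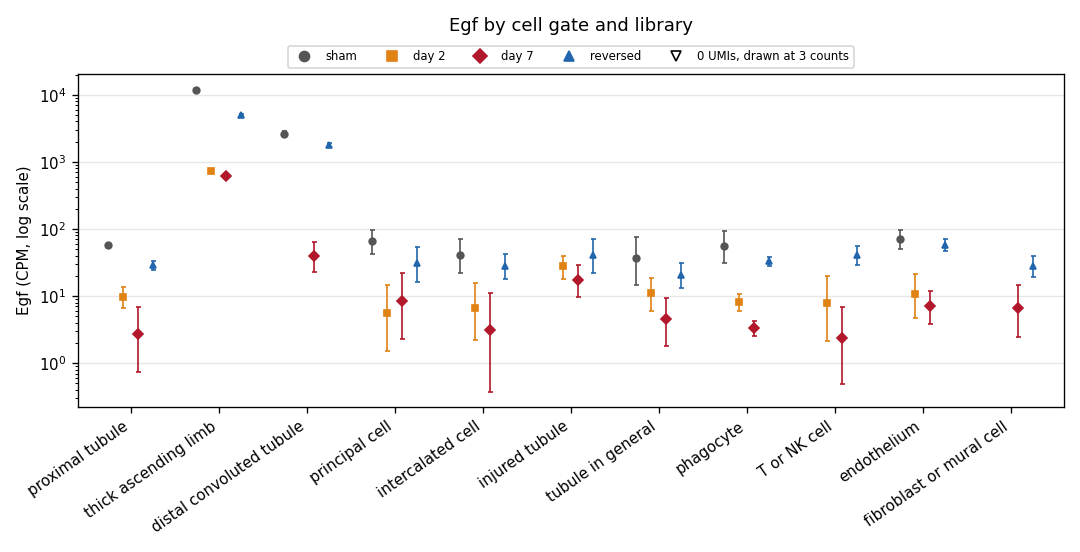
Egf level (CPM, log axis) by cell gate in the sham, day 2, day 7 and reversed droplet libraries, with exact Poisson intervals as bars. The thick ascending limb runs from 11872 CPM in sham to 615 CPM at day 7 and 4966 CPM after reversal, far above the other gates except the distal convoluted tubule in sham and after reversal.

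The distal convoluted tubule, the other segment known for Egf, had the same order of sham, obstructed and reversed. Its level was 2620 CPM [2344 to 2918] in 33 sham cells, 39.3 CPM in 56 cells at day 7 and 1793 CPM [1664 to 1930] in 55 reversed cells. The day 2 library had 12 such cells with 2 Egf UMIs, too few for a comparison. The reversed level was 45.6-fold that of day 7 (log2 ratio 5.47 [4.78 to 6.26]) and 1.46-fold lower than sham (-0.55 [-0.74 to -0.35]).

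Fewer thick ascending limb cells carried Egf during obstruction, and the median level per cell was lower. A UMI of Egf was present in 95.9% [91.7 to 98.3] of sham cells, 72.5% [66.1 to 78.3] at day 2, 56.2% [46.9 to 65.2] at day 7 and 77.9% [71.1 to 83.7] after reversal. Thinned to 1000 UMIs per cell, which left out no cell, the shares were 94.7, 39.2, 27.3 and 59.7%. In phagocytes, which should lack Egf, the unthinned shares were 18.6, 7.10, 2.28 and 23.2% and the thinned ones 4.29, 0.533, 0.354 and 3.77%. The median depths were 3803, 7539.5, 8987 and 5561 UMIs in the thick ascending limb and 3230.5, 9879, 6306 and 6725.5 UMIs in phagocytes.

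Per cell, the median of the thick ascending limb was 98.2 Egf UMIs per 10000 in sham, 2.85 at day 2, 0.878 at day 7 and 22.1 after reversal. The quartiles of the reversed cells were 0.990 and 107.3 per 10000, against 53.4 and 161.5 in sham. Single obstructed cells still reached sham levels, with a highest day 7 cell of 114.8 per 10000. Cells at 50 or more per 10000 made up 76.6% of the gate in sham, 1.35% at day 2, 4.13% at day 7 and 42.0% after reversal, while 22.1% of reversed cells had no Egf UMI. In the reversed library high and low cells thus stood side by side. Distal convoluted tubule cells had medians of 22.9 in sham, 0 at day 7 and 12.2 per 10000 after reversal.

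**Figure D2:**
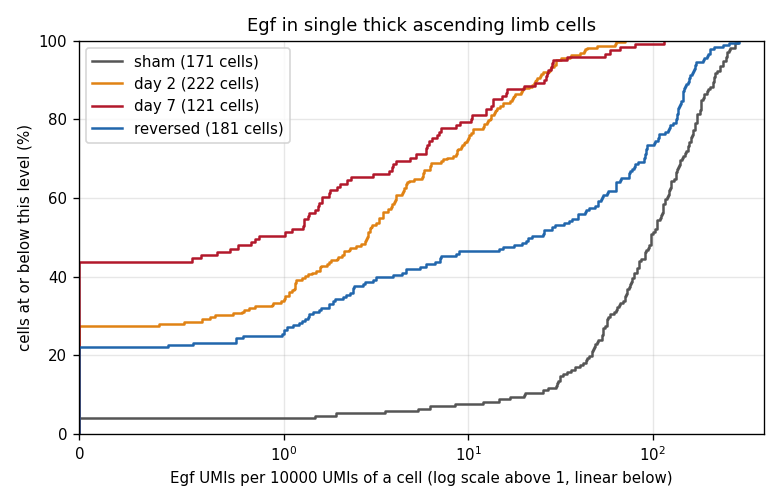
Cumulative share of thick ascending limb cells (percent) against Egf UMIs per 10000 UMIs of a cell (log axis above 1, linear below), 1 line per library. The sham line lies at the right with a median of 98.2, the day 2 and day 7 lines at the left with medians of 2.85 and 0.878, and the reversed line between them, from a quartile of 0.990 to one of 107.3.

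The 10 other thick ascending limb genes compared here moved less than Egf between sham and day 2 and between day 7 and reversed, and not all moved the same way. For day 2 against sham the interval of the ratio lay below 0 for 6 of them, above 0 for 2 and spanned 0 for 2; for reversed against day 7 it lay above 0 for 7, below for 1 and spanned 0 for 2. Between day 2 and day 7 some, such as Wfdc15b, moved more. Umod, the gene of uromodulin and the most abundant product of the segment, stood at 16066, 14545, 11648 and 13775 CPM in sham, day 2, day 7 and reversed. Slc12a1, the sodium-potassium-chloride cotransporter, stood at 5958, 2280, 2439 and 4722 CPM. Both were used to set the gate. Wfdc15b, which was not, stood at 3997, 1433, 815 and 1762 CPM, and Tmem207 at 103, 34.2, 29.9 and 52.8 CPM. Cldn10, a tight-junction claudin also outside the gate list, stood at 482, 463, 455 and 592 CPM. The log2 ratio of day 2 to sham was -0.14 for Umod, -1.39 for Slc12a1, -1.48 for Wfdc15b and -1.57 for Tmem207, against -4.03 for Egf. The genes above sham at day 2 were the claudins Cldn19, at 152 and 312 CPM (1.03 [0.73 to 1.35]), and Cldn16, at 125 and 172 CPM (0.46 [0.11 to 0.83]). Cldn16 was also the gene lower after reversal than at day 7 (-0.59 [-0.89 to -0.30]). In the distal convoluted tubule, Slc12a3, the sodium-chloride cotransporter of that segment, stood at 3893 CPM in sham, 1773 at day 7 and 3554 after reversal. Calb1, a calcium-binding protein, stood there at 2341, 411 and 958 CPM. Pvalb, parvalbumin, stood in that gate at 940 CPM in sham, 2.46 at day 7, which is 1 UMI, and 340 in the reversed library. Its log2 ratio of reversed to day 7 was 6.62 [4.51 to 8.33], with an interval that contains that of Egf (5.47 [4.78 to 6.26]). Of the 9 genes compared there, the interval for reversed against day 7 lay above 0 for 6, below for 2 and spanned 0 for 1. Those below were Trpv5, a calcium channel, at 7.96, 66.4 and 12.6 CPM in sham, day 7 and reversed (-2.31 [-3.85 to -0.98]), and Tmem52b (-0.24 [-0.38 to -0.09]).

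Within the thick ascending limb, cells with more Egf tended to have more Slc12a1. Spearman's rank correlation across cells was 0.49 in 171 sham cells, 0.63 in 222 day 2 cells, 0.56 in 121 day 7 cells and 0.46 in 181 reversed cells. The correlation with Umod was 0.44, 0.30, 0.36 and 0.59, and with Cldn10 -0.04, 0.02, 0.01 and -0.07. The cells of a library share its preparation and its depth, and these values are descriptions. The rank correlation of Egf with the mitochondrial share of a cell was -0.16, 0.30, 0.44 and 0.57, and the median mitochondrial share of the gate was 36.6, 21.2, 9.14 and 20.1%. The part of the mitochondrial share in the Egf levels was not tested.

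Outside these segments Egf was low. Over the other gates of at least 30 cells it ranged from 37.0 to 70.6 CPM in sham, 5.67 to 27.6 CPM at day 2, 2.33 to 17.5 CPM at day 7 and 20.8 to 58.3 CPM after reversal. In proximal tubule the level was 57.3, 9.64, 2.70 and 28.7 CPM and in phagocytes 56.4, 8.13, 3.30 and 33.3 CPM. These unlike cell types were thus close to each other in each library. The level that free RNA of the library would give, estimated from marker genes of other classes, was 84.0, 6.54, 4.03 and 41.8 CPM in proximal tubule and 94.7, 7.33, 4.68 and 45.0 CPM in phagocytes. In the thick ascending limb it was 67.7, 5.83, 3.65 and 38.1 CPM. Most other gates lay within 2-fold of that level or below it. The injured tubule gate did not in the obstructed libraries, with 27.6 CPM [18.2 to 40.1] against 5.28 expected at day 2 and 17.5 CPM [9.80 to 28.9] against 3.57 at day 7, on 27 and 15 UMIs; after reversal it had 41.5 CPM against 36.5 expected. Tubule cells without a segment and principal cells exceeded 2-fold once each, at 10.9 against 5.11 CPM on day 2 and 8.54 against 3.79 CPM on day 7. Those excesses rest on 14 and 4 UMIs. Apart from them and injured tubule under obstruction, Egf outside the thick ascending limb and distal convoluted tubule could not be told apart from free RNA. The estimate ran above the observed level in proximal tubule and phagocytes of the sham, day 7 and reversed libraries. The part of free RNA in these levels was not tested. Ratios of Egf outside those segments are not taken as results.

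Hbegf (ENSMUSG00000024486), a heparin-binding ligand that stays active at the cell surface as well as after shedding, was higher in tubule cells of the obstructed libraries. In proximal tubule, which reabsorbs most of the filtrate, it stood at 11.8 CPM [9.70 to 14.1] in sham, 27.7 [22.3 to 34.0] at day 2, 71.7 [58.7 to 86.7] at day 7 and 21.4 [18.0 to 25.4] after reversal. The log2 ratio was 1.17 [0.78 to 1.56] for day 2 against sham, 1.34 [0.93 to 1.75] for day 7 against day 2 and -1.70 [-2.06 to -1.33] for reversed against day 7. The reversed level stayed above sham by 0.81 [0.47 to 1.16]. The day 2 ratio was not past 2-fold in each setting: with TMM factors, which scale libraries on their shared genes, it was 0.84 [0.45 to 1.23], and with a pseudocount of 10 CPM it was 0.79. With TMM factors the other 3 ratios were 1.01, -1.37 and 0.49 [0.14 to 0.84]. At day 7, 37 of the 106 Hbegf UMIs of the gate lay in a single cell of the S3 segment, and without that cell the level was 47.4 CPM. Without the top cell of each library the day 7 to day 2 ratio was 0.81, no longer past 2-fold, and the reversed to day 7 ratio was -1.13. The median mitochondrial share of the gate ran in the reverse order, at 34.9, 24.1, 19.9 and 31.2% in sham, day 2, day 7 and reversed. Its part in the Hbegf and Egfr levels of proximal tubule was not tested.

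In the thick ascending limb Hbegf went the other way from Egf between sham and obstruction and after reversal was still above sham. The level was 9.11 CPM [3.34 to 19.8] in sham, 72.7 [60.9 to 86.3] at day 2, 129 [109 to 152] at day 7 and 95.3 [78.5 to 115] after reversal. These levels rest on 6, 132, 147 and 112 UMIs. The log2 ratio was 2.87 [1.78 to 4.11] for day 2 against sham and 3.25 [2.16 to 4.50] for reversed against sham. Against day 7 the reversed level was lower by less than 2-fold (-0.43 [-0.80 to -0.07], or -0.67 without the top cell of each library), and with TMM factors its interval spanned 0 (-0.36 [-0.72 to 0.0027]). Single cells weighed on it: 29 of 132 UMIs at day 2 and 27 of 112 UMIs after reversal came from 1 cell each, and without these cells the levels were 57.5 and 72.8 CPM. Between gates, the thick ascending limb was above proximal tubule at day 2 by a log2 ratio of 1.36 [0.98 to 1.75], at day 7 by less than 2-fold (0.84 [0.48 to 1.21]) and after reversal by 2.10 [1.74 to 2.46], while in sham the interval spanned 0 (-0.34 [-1.58 to 0.75]). Without the top cell of each gate and library these 3 ratios were 1.10 [0.68 to 1.51], 1.29 [0.86 to 1.72] and 1.76 [1.36 to 2.15], so the day 7 ratio was then past 2-fold.

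The share of thick ascending limb cells with an Hbegf UMI was 3.51% [1.30 to 7.48] in sham, 23.9% [18.4 to 30.04] at day 2, 43.8% [34.8 to 53.1] at day 7 and 16.6% [11.5 to 22.8] after reversal. Thinned to 1000 UMIs it was 0.585, 4.95, 9.92 and 3.87%. Phagocytes had 0, 5.86, 3.78 and 5.57% unthinned and 0, 1.24, 0.787 and 1.05% thinned, at the depths given above for Egf. The thinned shares lay above those of phagocytes in the day 2, day 7 and reversed libraries, and at day 7 the intervals were apart.

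After reversal, thick ascending limb cells with Hbegf were mostly cells low in Egf, a split chosen after the values were seen. The 30 reversed cells with an Hbegf UMI had a median of 1.61 Egf UMIs per 10000, against 42.9 in the 151 cells without. The cells with Hbegf had a median of 8557.5 UMIs and 8.17% mitochondrial UMIs, and those without had 5129 UMIs and 23.4%. At day 2 the medians of Egf were 2.06 with and 2.98 without an Hbegf UMI, and at day 7 they were 0.878 and 1.02. In sham the 6 cells with Hbegf had the higher median, 157 against 97.6. The part of depth and mitochondrial share in this split was not tested.

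In the collecting duct Hbegf was also higher under obstruction, on fewer UMIs. Principal cells, which control water and sodium, stood at 8.22, 86.5, 79.0 and 13.1 CPM in sham, day 2, day 7 and reversed, on 3, 61, 37 and 5 UMIs. Their log2 ratio was 3.25 [1.74 to 5.06] for day 2 against sham and -2.51 [-4.02 to -1.22] for reversed against day 7. The 5 reversed and 3 sham UMIs were too few to compare those libraries. Intercalated cells, which handle acid and base, stood at 15.7, 78.0, 61.4 and 47.5 CPM, with a log2 ratio of 2.24 [0.99 to 3.75] for day 2 against sham. The distal convoluted tubule had no Hbegf UMI in sham, which allows up to 23.9 CPM, 71.3 CPM at day 7 and 25.1 CPM after reversal.

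Tubule cells with injury markers or with no segment of their own carried the most Hbegf among the tubule gates. The injured tubule gate, which had no sham cells, stood at 128 CPM at day 2, 160 at day 7 and 195 after reversal; there 22 of 61 UMIs were in 1 cell, without which the reversed level was 130.5 CPM. Tubule cells that could be given no segment stood at 137 CPM [89.7 to 201], 197 [173 to 222], 165 [145 to 186] and 124 [105 to 146], so that sham overlapped each of the other libraries. Within proximal tubule, cells with a UMI of the injury markers Havcr1 or Krt20 had 25.2 CPM of Hbegf against 28.8 CPM without at day 2, and 108 against 38.8 CPM at day 7 (log2 ratio 1.45 [0.83 to 2.09]). The day 7 cell with 37 Hbegf UMIs was among those with an injury marker; without it they had 57.1 CPM and the interval of the ratio spanned 0 (0.54 [-0.16 to 1.26]). After reversal the levels were 18.1 with and 21.6 CPM without a marker, on 4 UMIs with one.

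Outside the tubule, endothelium had Hbegf at a level that differed little between libraries. It stood at 143 CPM [114 to 177], 109 [86.5 to 136], 106 [92.1 to 121] and 134 [117 to 153] in sham, day 2, day 7 and reversed. All tubule gates together were below endothelium in sham (log2 ratio -3.29 [-3.67 to -2.90]) and level with it at day 7 (0.13 [-0.09 to 0.36]). Proximal tubule made up 3033 of 3386 tubule cells in sham and 220 of 802 at day 7, so these sums mix different cells. Proximal tubule alone stayed below endothelium at day 7 (71.7 against 106 CPM). Phagocytes had 5.85 CPM at day 2, 9.09 at day 7 and 9.42 after reversal. In the 70 sham phagocytes no Hbegf UMI was seen, which allows up to 11.3 CPM, so a difference from sham was not detectable at this depth.

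The fibroblast and mural gate went from 10.1 CPM [4.62 to 19.2] of Hbegf at day 7 to 215 [189 to 243] after reversal, a log2 ratio of 4.28 [3.40 to 5.28]. Sham and day 2 had 5 and 15 such cells, too few for a level. A single cell held 51 of the 247 reversed UMIs, and the level without it was 173 CPM. Clustering split the gate into different cells, a look taken after the values were seen. A cluster with Wt1 at 213 CPM, Ncam1 at 515, Pax8 at 267 and neither Lum nor Pdgfra had 6 cells at day 7 and 57 after reversal, where it held 174 Hbegf UMIs (270 CPM [232 to 313]). The collagen-rich cluster, with Col1a1 at 7963 CPM at day 7 and 3042 after reversal, had 79 and 62 cells; its Hbegf was 7.09 CPM [2.60 to 15.4] and 144 [113 to 182], the latter on 73 UMIs in 13 cells. The cell with 51 UMIs was among them, and without it the level was 45.2 CPM [28.3 to 68.4]. The cluster also differed in other genes, with Lum in 47 of its 79 cells at day 7 and in 10 of 62 after reversal. Acta2 was higher in the cluster with Wt1, at 1755 CPM at day 7 and 2290 after reversal. In the collagen-rich cluster Acta2 stood at 899 and 489 CPM.

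**Figure D3:**
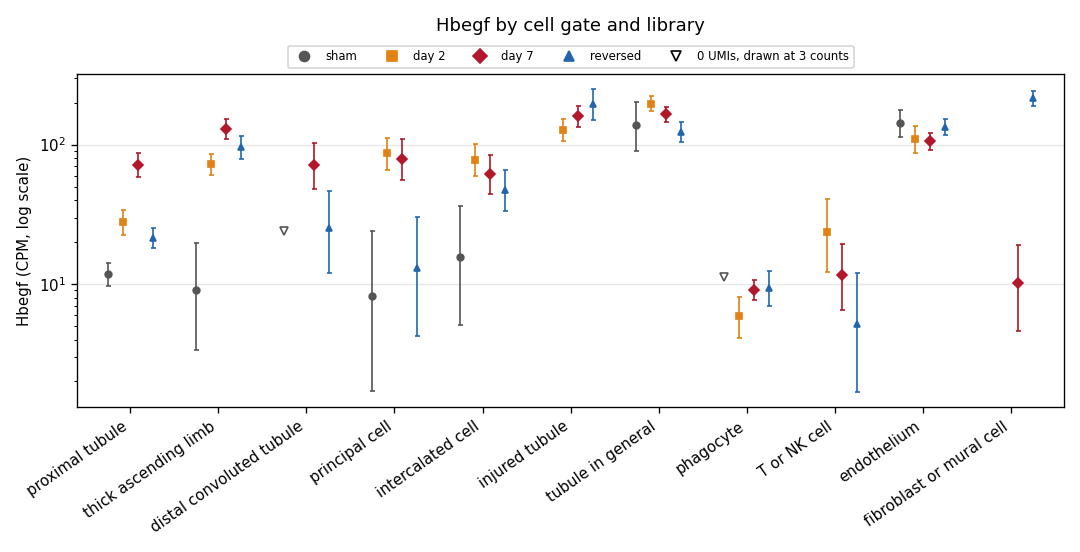
Hbegf level (CPM, log axis) by cell gate in the 4 droplet libraries, with exact Poisson intervals as bars. The sham points of proximal tubule, thick ascending limb and principal cells lie at 8.22 to 11.8 CPM and the day 7 points at 71.7 to 129 CPM, while endothelium stays between 106 and 143 CPM.

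Hbegf is also an immediate-early gene, and genes known to respond to tissue digestion were summed beside it (Fos, Jun, Junb, Atf3, Hspa1a, Hspa1b and Dnajb1). They stood at 57.1, 283, 1093 and 312 CPM in proximal tubule and at 111, 345, 582 and 1121 CPM in the thick ascending limb of sham, day 2, day 7 and reversed. Tubule cells without a segment had 6563, 2237, 1988 and 2846 CPM, and the fibroblast and mural gate had 1720 at day 7 and 2969 after reversal. Principal cells had 1093, 1985, 1535 and 1612 CPM, and the injured tubule gate had 588, 1238 and 2267 CPM at day 2, day 7 and reversed. The list, like Hbegf, was lowest in sham and highest at day 7 in proximal tubule, and lowest in sham and highest at day 2 in principal cells. In the injured tubule gate both went up from day 2 to day 7 to reversed, though without the top cells Hbegf there was 107, 140 and 130.5 CPM. In the thick ascending limb the orders were unlike, with the list highest after reversal and Hbegf highest at day 7. Tubule cells without a segment had the list highest in sham and Hbegf highest at day 2. The orders were also unlike in intercalated cells. The list stood there at 351, 667, 795 and 1236 CPM in sham, day 2, day 7 and reversed, with Hbegf highest at day 2. The distal convoluted tubule had 55.7, 435 and 448 CPM of the list in sham, day 7 and reversed. Hbegf in that segment was lower after reversal than at day 7. In endothelium, where Hbegf differed little, the list stood at 812, 1801, 2000 and 2815 CPM. In phagocytes it was 1794, 2608, 2174 and 3558 CPM, with at most 9.42 CPM of Hbegf. The part of digestion in the Hbegf levels was not tested.

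Areg, amphiregulin, was not seen in sham and was rare elsewhere. Over all kept cells there were 0, 65, 60 and 152 UMIs in sham, day 2, day 7 and reversed, in 0, 19, 31 and 38 cells. The levels were 3.85, 2.09 and 7.59 CPM in the last 3 libraries. With a floor of 3 counts over the sham library, 0.242 CPM, day 2 was at least 15.9-fold higher and reversed at least 31.4-fold higher. The sham library had few of the cells that carried Areg elsewhere, with 70 phagocytes and 21 T or NK cells against 563 and 122 at day 2.

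Phagocytes and lymphocytes held most Areg UMIs. Phagocytes had 42 UMIs at day 2, 27 at day 7 and 100 after reversal, or 6.83, 1.53 and 19.2 CPM. The log2 ratio was -1.63 [-2.13 to -1.09] for day 7 against day 2 and 3.00 [2.55 to 3.42] for reversed against day 7. In sham phagocytes 0 of 70 cells had a UMI, which is compatible with as much as 4.29% of cells and 11.3 CPM, so sham cannot be set apart from day 2 or day 7 in this gate. T and NK cells had 16, 21 and 37 UMIs, or 31.3, 16.3 and 38.3 CPM. The digestion list followed the same order as Areg in both gates, lowest at day 7 and highest in the reversed library among these 3, at 2608, 2174 and 3558 CPM in phagocytes and 1447, 1221 and 1734 CPM in T and NK cells. In sham phagocytes, with no Areg UMI, it was 1794 CPM. The part of digestion in the Areg levels was not tested.

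Areg rested on a handful of cells. At day 2, 23 of the 42 phagocyte UMIs came from 1 macrophage with C1q genes, and after reversal 37 of 100 came from 1 dendritic cell with Ccr7. Without the top cell of each library the phagocyte levels were 3.09 CPM at day 2, 1.19 at day 7 and 12.2 after reversal. The log2 ratio of day 7 to day 2 was then -0.90, no longer past 2-fold, and that of reversed to day 7 was 2.58. Of the 37 T and NK UMIs after reversal, 18 came from 1 cell, and at day 2 it was 10 of 16. Proximal tubule had 8 Areg UMIs in 5 cells at day 7, of which 7 UMIs were in cells with Havcr1 or Krt20. The gate of type 2 innate lymphoid cells, with 3 cells at day 7 and 7 after reversal, also held Areg. Single cells of it had 2 UMIs at day 7 and 1, 2 and 5 UMIs after reversal, too few for a level.

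**Figure D4:**
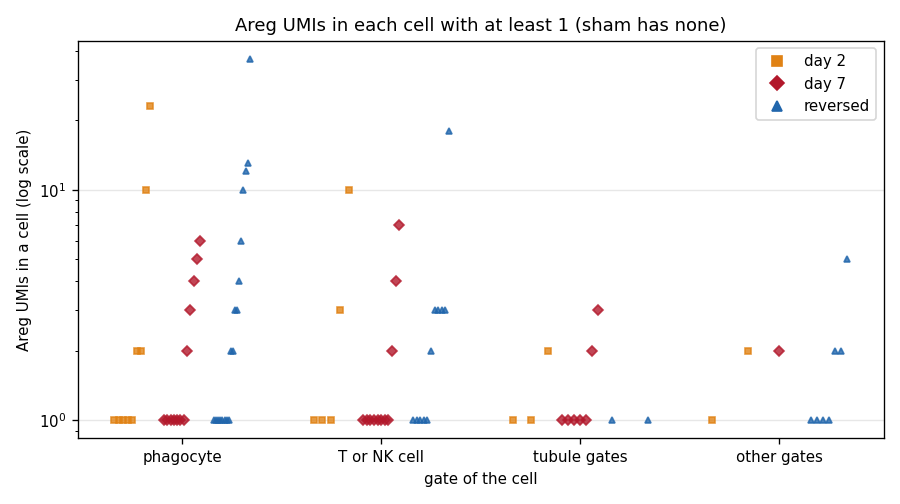
Areg UMIs in each cell with at least 1 (log axis), by the gate of the cell and by library. Day 2, day 7 and reversed had 19, 31 and 38 such cells and sham had none; the highest points are single phagocytes of 23 UMIs at day 2 and 37 UMIs after reversal.

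Ereg, epiregulin (ENSMUSG00000029377, chromosome 5 from 91074622 to 91093646, plus strand, GRCm38, next to Areg), had 2 UMIs in all, both in the reversed library, and could not be compared. Tgfa, transforming growth factor alpha (ENSMUSG00000029999, chromosome 6 from 86195223 to 86275719, plus strand), was near its detection limit with 9, 28, 52 and 46 UMIs in sham, day 2, day 7 and reversed, or 0.725, 1.66, 1.81 and 2.30 CPM over all kept cells. In principal cells it stood at 5.48 CPM [0.664 to 19.8], 17.0 [8.79 to 29.7], 10.7 [3.47 to 24.9] and 2.61 [0.0661 to 14.6]. Endothelium had 5.04, 6.82, 9.13 and 5.35 CPM. The intervals of neighbouring libraries overlap in both gates. Over all tubule gates together Tgfa had 5, 22, 28 and 26 UMIs, or 0.440 CPM [0.143 to 1.03], 2.45 [1.53 to 3.71], 4.25 [2.82 to 6.14] and 2.46 [1.61 to 3.61]. Sham was the lowest there, with log2 ratios of 1.26 [0.59 to 1.73] for day 2 and 1.27 [0.62 to 1.72] for reversed over sham. As for Hbegf, these sums mix different cells, with proximal tubule at 3033 of 3386 cells in sham and 220 of 802 at day 7.

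Egfr, the receptor of Egf, Hbegf, Areg and Tgfa, was found in proximal tubule, other tubule cells and fibroblasts. The gene (ENSMUSG00000020122) spans chromosome 11 from 16752203 to 16918158 on the plus strand. Proximal tubule stood at 17.1 CPM [14.6 to 19.9], 24.7 [19.6 to 30.7], 31.8 [23.3 to 42.2] and 17.7 [14.5 to 21.2] in sham, day 2, day 7 and reversed, on 166, 82, 47 and 112 UMIs. The log2 ratio was 0.50 [0.12 to 0.88] for day 2 against sham, -0.81 [-1.30 to -0.31] for reversed against day 7 and 0.04 [-0.30 to 0.38] for reversed against sham. With TMM factors the first 2 intervals spanned 0, at 0.17 [-0.21 to 0.55] and -0.49 [-0.97 to 0.0081]. Between its segments, the log2 ratio of S1 and S2 to S3 cells was 0.62 [0.02 to 1.25] in sham, -0.48 [-1.24 to 0.34] at day 2, 0.99 [0.09 to 1.93] at day 7 and 0.46 [-0.23 to 1.19] after reversal, so no segment was higher throughout. Within segments some differences between libraries were past 2-fold: S3 cells at day 2 against sham (1.35 [0.43 to 2.24]) and S1 and S2 cells after reversal against day 7 (-1.13 [-1.73 to -0.50]). Principal cells stood at 16.4, 24.1, 14.9 and 13.1 CPM of Egfr and tubule cells without a segment at 26.4, 21.1, 13.5 and 10.4 CPM, both near proximal tubule in sham and at day 2.

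In the thick ascending limb Egfr was sparse, at 15.2 CPM [7.28 to 27.9] in sham, 2.20 [0.601 to 5.64] at day 2, 5.27 [1.93 to 11.5] at day 7 and 8.51 [4.08 to 15.7] after reversal. These are 10, 4, 6 and 10 UMIs. The log2 ratio of day 2 to sham was -2.34 [-3.64 to -0.85]. Against proximal tubule, the thick ascending limb had less Egfr at day 2 (log2 ratio -3.00 [-4.05 to -1.89]) and day 7 (-2.39 [-3.56 to -1.29]), and in sham the interval spanned 0 (-0.16 [-1.16 to 0.71]). After reversal the levels were 8.51 CPM in the thick ascending limb and 17.7 CPM in proximal tubule, on 10 and 112 UMIs.

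Proximal tubule cells with an injury marker had more Egfr than those without in the obstructed libraries. The levels were 36.2 against 19.8 CPM at day 2 (log2 ratio 0.84 [0.20 to 1.48]) and 46.7 against 18.1 CPM at day 7 (1.32 [0.41 to 2.28]). After reversal, with 24 marked cells, the interval spanned 0 (0.85 [-0.43 to 1.92]). At day 7 Erbb2 (1.47 [0.24 to 2.78]) and Erbb3 (1.04 [0.13 to 2.00]) were higher in marked cells too, on 19 and 29 UMIs, but without the top cell the Erbb3 interval spanned 0 (0.93 [-0.0092 to 1.90]). At day 2 both intervals spanned 0, with Erbb2 at -0.75 [-1.88 to 0.30] and Erbb3 at 0.46 [-0.20 to 1.11]. Cells with a marker were also deeper, with medians of 5543 against 4198.5 UMIs at day 2 and 8470 against 4329 at day 7. Their mitochondrial shares were lower, 21.1 against 24.9% and 12.2 against 23.0%, and the part of depth and mitochondrial share was not tested.

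Fibroblasts and mural cells had the highest Egfr level of any gate at day 7, 79.7 CPM [62.3 to 101], and 26.1 [17.6 to 37.3] after reversal (log2 ratio -1.57 [-2.22 to -0.96]). In the collagen-rich cluster alone the levels were 83.9 and 35.6 CPM. Phagocytes had 3.76, 0.975, 1.99 and 2.12 CPM of Egfr, on 1 UMI in sham, and endothelium had 0.507 to 1.36 CPM in the other libraries and no UMI in sham, which allows up to 5.04 CPM.

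Erbb2, the partner receptor without a ligand (ENSMUSG00000062312, chromosome 11 from 98412470 to 98437716, plus strand), was found in most tubule gates, with the higher levels in the thick ascending limb, distal convoluted tubule, principal cells and injured tubule. The thick ascending limb stood at 39.5 CPM [25.8 to 57.9], 35.8 [27.6 to 45.7], 44.8 [33.4 to 58.9] and 29.8 [20.8 to 41.4], with overlapping intervals. It was above proximal tubule in each library, by log2 ratios of 1.26 [0.62 to 1.85], 1.46 [0.91 to 2.03], 1.30 [0.62 to 2.00] and 0.92 [0.34 to 1.47]. Proximal tubule stood at 15.9, 12.3, 17.6 and 15.3 CPM and principal cells at 38.4, 32.6, 42.7 and 23.5 CPM. Intercalated cells, at 18.8, 16.1, 18.4 and 10.3 CPM, were near proximal tubule. The highest value in a gate of at least 30 cells was 73.8 CPM [49.8 to 105] in distal convoluted tubule at day 7. Endothelium had 6.09 to 8.92 CPM and phagocytes 1.14 to 3.76 CPM.

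Erbb3, the neuregulin receptor (ENSMUSG00000018166, chromosome 10 from 128567523 to 128589652, minus strand), differed little between most tubule segments. Over all tubule gates it stood at 23.0, 26.5, 25.04 and 23.9 CPM in sham, day 2, day 7 and reversed. Proximal tubule ranged from 22.1 to 29.7 CPM over the libraries and the thick ascending limb from 16.5 to 24.7 CPM, and the interval of their ratio spanned 0 in each library. Principal cells had 19.2, 41.1, 23.5 and 23.5 CPM, and their log2 ratio of day 2 to sham was 1.06 [-0.12 to 2.40]. At day 2 they lay above the thick ascending limb, at 41.1 [27.5 to 59.0] against 16.5 CPM [11.2 to 23.6]. Endothelium had 0.507 to 3.36 CPM. Over whole gates, no Erbb2 pair compared was past 2-fold, while Erbb2 in proximal tubule cells with an injury marker was 8.06 CPM at day 2 and 26.9 at day 7 (1.62 [0.45 to 2.84]). For Erbb3, principal cells (0.99 with TMM factors) and phagocytes were past 2-fold, the latter on 2 UMIs in sham and with the opposite direction once cells were thinned.

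**Figure D5:**
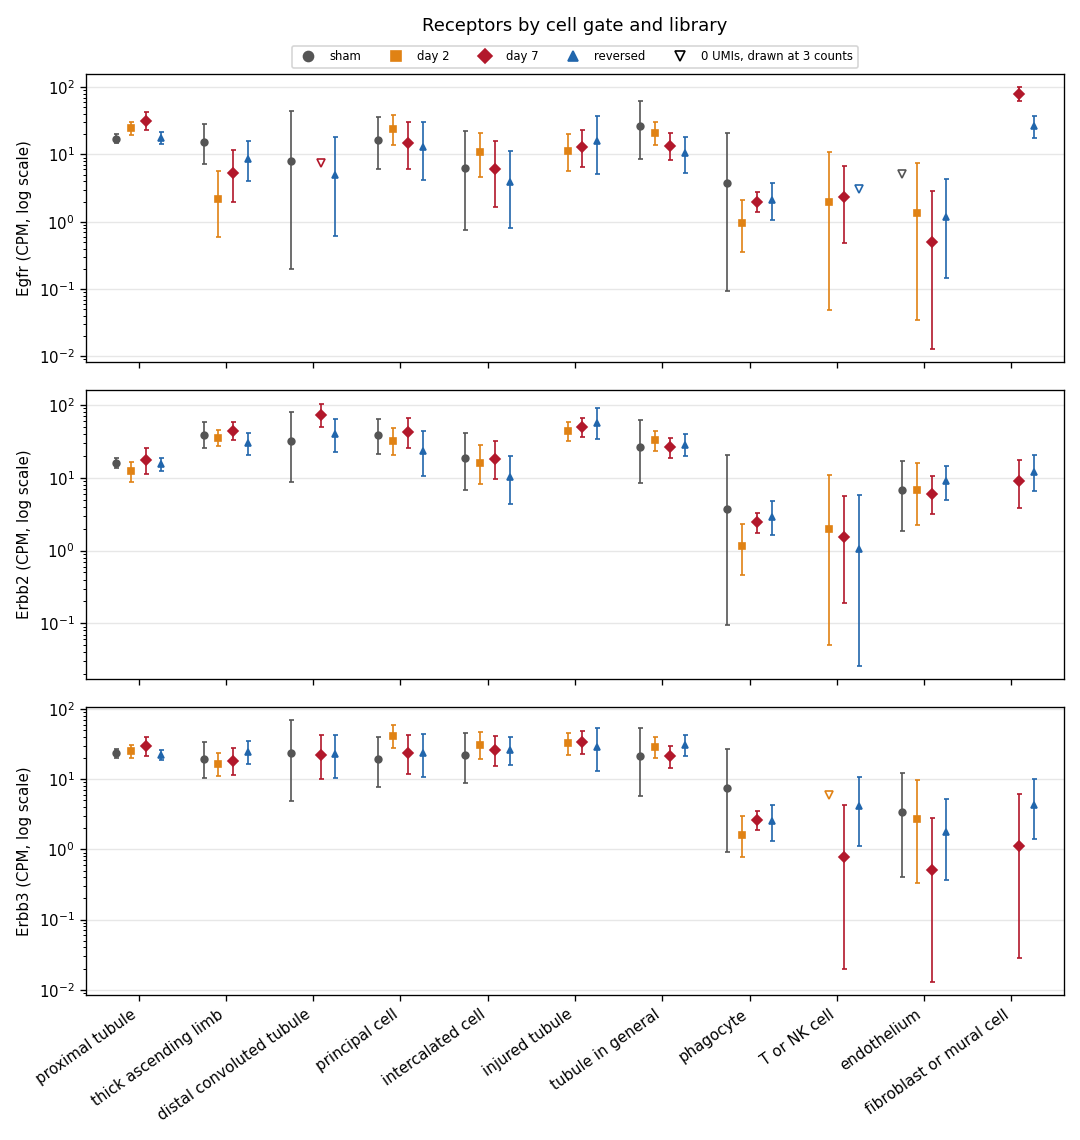
Levels of Egfr, Erbb2 and Erbb3 (CPM, log axis) by cell gate in the 4 droplet libraries, with exact Poisson intervals as bars. Egfr peaks in fibroblasts and mural cells at day 7 (79.7 CPM), Erbb2 lies higher in the thick ascending limb than in proximal tubule, and Erbb3 lies near 20 to 30 CPM in most tubule gates.

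Counted over the members, a pair of a member and a gate was compared where both libraries had at least 30 cells and at least 10 UMIs together. For day 2 against sham, 8 of 32 pairs were past 2-fold higher, where 13.0% of all gene and gate pairs were, and 9 were past 2-fold lower, where 7.71% were. Of these, 5 of the 8 higher pairs were Hbegf, among them proximal tubule, which TMM factors took under 2-fold, and 7 of the 9 lower pairs were Egf, and 2 called pairs had no UMI in sham. Without Egf outside the thick ascending limb and distal convoluted tubule the counts were 8 higher and 3 lower of 26. For day 7 against day 2, 2 of 43 pairs were higher (10.1% of all pairs) and 4 lower (3.39%), or 2 and 1 of 38 without those Egf pairs. Of the 4 lower pairs, 3 were Egf.

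For reversed against day 7, 15 of 52 pairs were past 2-fold higher (5.31% of all pairs) and 5 lower (6.63%). Egf gave 11 of the 15, and without its pairs outside these segments 6 were higher and 5 lower of 43. For reversed against sham, 5 of 38 pairs were higher (15.2% of all pairs) and 4 lower (4.92%), or 5 and 3 of 32 without those Egf pairs, and 3 called pairs had no UMI in a library. The median log2 ratio of the member pairs was -0.02, -0.04, 0.15 and -0.08 in these 4 comparisons, beside 0.09, 0.16, -0.03 and 0.16 over all pairs. Sham, day 2, day 7 and reversed libraries each enter several of these comparisons, so their counts are not independent.

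The wider pathway was followed with 47 further genes: other ligands, shedding enzymes, adaptors, kinases, negative regulators and response genes. In proximal tubule at day 2 against sham, 9 of 41 with enough UMIs were past 2-fold higher (10.8% of all genes) and 1 lower (1.63%). Nrg1, a neuregulin ligand of Erbb3, stood at 3.30 CPM in sham and 23.5 at day 2 (log2 ratio 2.51 [1.99 to 3.02]). The response genes Myc (2.66) and Egr1 (2.29) and the transcription factor Stat3 (2.14) had similar ratios. The digestion list moved with them in this gate, from 57.1 to 283 CPM, and for reversed against day 7 it went from 1093 to 312 CPM; its part was not tested. For reversed against day 7, 0 of 39 were higher (2.77% of all genes) and 11 lower (10.2%), or 6 past 2-fold with TMM scaling, with Nrg1 at 71.7 and 10.7 CPM (-2.63 [-3.06 to -2.20]). The ratios there were -2.50 for Myc, -1.99 for Rhbdf2, a cofactor of the shedding enzyme Adam17, and -1.59 for Egr1. The median of the list was 0.32 and -0.40 in these comparisons, beside 0.29 and -0.28 over all genes, so the list's median lay near that of genes at large.

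In the thick ascending limb, 5 of 34 pathway genes were past 2-fold higher at day 2 against sham (10.3% of all genes) and 3 lower (6.85%), none with an interval wholly past 2-fold. For reversed against day 7, 3 of 36 were higher (4.49%) and 3 lower (5.72%), and the response gene Fos alone had an interval past 2-fold (log2 ratio 1.78 [1.45 to 2.12]). In phagocytes, 2 of 39 were higher (7.71%) and 3 lower (2.22%) for day 7 against day 2; the lower ones were the response genes Phlda1 (-1.52), Myc (-1.32) and Ier3 (-1.26). For reversed against day 7, 4 of 40 were higher (2.47%) and 0 lower (0.932%), with Phlda1 at 1.40, Egr1 at 1.24 and Fos at 1.10. Fos is also in the digestion list, which was higher in reversed than in day 7 phagocytes and thick ascending limb cells.

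The genes most like each member were sought by Pearson's r of log2(CPM + 10) over 39 gate and library profiles, among 13316 genes. They were Gpx6 (r = 0.948), Dusp15 (0.902) and Wfdc15b (0.867) for Egf. They were Edn1 (0.887), Adamts1 (0.875) and Tsc22d1 (0.874) for Hbegf and Cd200r4 (0.941), Slc28a2 (0.926) and Arhgap27os3 (0.919) for Areg. Tgfa was closest to Mpped2 (0.815), Egfr to H6pd (0.872), Erbb2 to Ptprf (0.928) and Erbb3 to 2610528J11Rik (0.938). Profiles of 1 library share its depth and its free RNA. The values for Areg and Tgfa rest on 262 and 131 UMIs of the member, and those of Areg lay largely in a handful of cells.

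The Smart-seq2 wells gave a separate reading of the same genes in reads without molecular identifiers. Wells had a median of 95274 gene reads, from 441 to 7854119. At least 1 read was present for Egf in 8 wells, Hbegf in 16, Tgfa in 1, Egfr in 18, Erbb2 in 10 and Erbb3 in 36 of 768 wells. At least 10 reads were present in 3, 5, 0, 1, 3 and 10 wells. Areg and Ereg had no read in any well, which allows up to 0.391% of wells with a read. That limit counts shallow wells like deep ones. These wells were too rarely positive for the family to be described further.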

How the data were processed

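The 4 droplet libraries (10x 3′ V2, 1 per time point) were analysed from the deposited matrices of raw UMI counts, which the authors made with Cell Ranger and STAR on GRCm38 (mm10), per the submitters' processing notes. The Smart-seq2 table holds deposited read counts per gene and well. Cells under 200 genes or over 50% mitochondrial UMIs were removed, as were the cells with the highest Scrublet scores at 0.8% per 1000 cells, since its automatic threshold marked 1 to 11 cells. Each cell went to the gate with the highest mean log marker score if at least 3 markers were detected; this scoring was chosen after comparing marker levels between gates. The members, lists and tests were chosen with earlier results of these data known. Pathway genes were named where the exact interval lay past 2-fold, at most the 4 largest per direction. Coordinates are from GENCODE on GRCm38. Ratio intervals were tested on simulated data. Python 3.11.15, scanpy 1.11.5 and scipy 1.17.1 were used, with edgeR 4.0.16 and DESeq2 1.42.0 for scaling factors alone. Cells are not replicates, and no p-value was computed.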

Additional observations from a re-analysis of the deposited data

Results flagged for a closer look

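In 4 comparisons a member was higher in 1 gate and lower in another between the same libraries, counting ratios on at least 10 UMIs whose intervals each lay apart from 0. None of these differences between gates was tested, since each time point had 1 library. Hbegf at day 7 against day 2 had a log2 ratio of 1.34 in proximal tubule and -0.26 in tubule cells without a segment, or 0.81 and -0.32 without the top cell of each library. Hbegf after reversal against day 7 had 4.28 in fibroblasts and mural cells and -2.51 in principal cells. The former gate held different cells in the libraries: 57 of its 119 reversed cells and 174 of their 247 Hbegf UMIs were in the cluster with Wt1 and Ncam1, which had 6 cells at day 7. Areg at day 7 against day 2 had 1.54 in proximal tubule, on 8 UMIs at day 7, and -1.63 in phagocytes, or 1.45 and -0.90 without the top cells; with TMM factors the proximal tubule interval spanned 0 (1.26 [-0.045 to 2.32]). Egfr at day 2 against sham had 0.50 in proximal tubule and -2.34 in the thick ascending limb, the latter on 4 and 10 UMIs; with TMM factors the proximal tubule interval spanned 0 (0.17 [-0.21 to 0.55]). Outside this count, Erbb3 at day 2 against sham had 1.06 in principal cells and -1.70 in phagocytes, with both intervals spanning 0. Areg after reversal against day 7 had 3.00 in phagocytes and -2.47 [-2.82 to -1.30] in proximal tubule, the latter on 1 and 8 UMIs.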

How the results depend on the processing

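No paired analysis was possible because each time point had 1 library. For Egf in the thick ascending limb, direction was kept in all settings run. The cluster class of that segment also held many cells of other gates. Day 2 against sham (-4.03) became -3.76 with up to 80% mitochondrial UMIs, -4.67 with cluster classes, -4.12 with 4 markers, -3.83 with equal cells, -4.28 without mitochondrial UMIs in the denominator and -3.66 thinned. Day 7 against day 2 (-0.24) became -0.78 with clusters, -0.031 with equal cells, -0.43 without mitochondrial UMIs, -0.56 with TMM and -0.53 with median-of-ratios factors. Reversed against day 7 (3.01) became 2.06 with at most 20% mitochondrial UMIs, 3.57 with clusters and 3.19 without mitochondrial UMIs. Reversed against sham (-1.26) became -0.95, -1.88, -0.94, -1.51 and -0.89 in the settings of the first list other than 4 markers, and -1.47 and -1.51 with TMM and median-of-ratios factors. At most 20% mitochondrial UMIs left under 30 sham cells of that gate, so neither ratio against sham could be had.

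Member pairs past 2-fold numbered 17, 6, 20 and 9 in the comparisons day 2 to sham, day 7 to day 2, reversed to day 7 and reversed to sham. Day 2 against sham gave 7 pairs with at most 20% mitochondrial UMIs, 11 with a pseudocount of 10 and 4 thinned, and reversed against sham gave 5, 5 and 4. Day 7 against day 2 gave 1 pair with that pseudocount, and reversed against day 7 gave 11 thinned. Pathway genes past 2-fold in the thick ascending limb went from 8 and 6 to 3 and 3 with at least 30 UMIs, and those lower in proximal tubule after reversal from 11 to 6 with TMM. Leaving out the cell with the most UMIs, added after seeing the data, gave 18, 6, 20 and 10 pairs.

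Subtracting expected free RNA reversed Egf ratios in gates other than the thick ascending limb and distal convoluted tubule. Day 2 against sham became 2.03 in proximal tubule, 1.38 in intercalated cells, 2.77 in tubule without a segment, 0.84 in phagocytes and 1.34 in endothelium. In sham proximal tubule and phagocytes the expected level was above the observed one, so the subtraction left no sham Egf to compare with. The ratios of 2.03 and 0.84 therefore do not show more Egf at day 2. Reversed against day 7 became -2.52 in principal cells, -1.31 in injured tubule, -1.002 in tubule without a segment and -2.12 in fibroblasts. Cluster classes turned Egf at day 7 against day 2 in tubule without a segment to 0.049. Thinning, which left few UMIs, reversed Egf in tubule without a segment at day 2 against sham (0.22), Hbegf in distal convoluted tubule at reversed against day 7 (0.025), Tgfa in principal cells at day 2 (-3.99), Egfr in tubule without a segment at reversed against sham (3.12) and Erbb3 in phagocytes at day 2 and reversed against sham (2.66 and 2.00). The cause was not tested. Of 2300 log2 ratios under alternatives, 2124 stayed close, 160 moved and 16 reversed. Thinning alone moved 77, reversed 6 and left 76 close. Of 1281 levels, 1140 stayed close and 141 moved. Shares of cells depended more on the setting: of 264, without thinning or thinned to 500 UMIs, 185 moved and 79 stayed close. Hbegf at day 2 against sham (1.17) ranged from 0.79 to 1.30 in proximal tubule, under 2-fold with at most 20% mitochondrial UMIs (0.87), UMIs without mitochondrial genes (0.99), a pseudocount of 10 (0.79), TMM and median-of-ratios factors (both 0.84) and thinning (0.96), and from 2.11 to 3.16 in the thick ascending limb. Few UMIs limit Ereg, Tgfa, Areg and most members in the sham gates outside proximal tubule. Egf in the sham thick ascending limb (7815 UMIs) and distal convoluted tubule (329 UMIs) is not so limited.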
